A study of Mus musculus with 4 samples.

Results

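The 36 genes described here encode aminoacyl-tRNA synthetases, 20 grouped as cytosolic and 16 as mitochondrial. They were chosen by gene name from the deposited arrays: a probe counted when its RefSeq transcript belonged to one of the named genes, with the suffix 2 marking the mitochondrial enzymes. This suffix does not show whether a gene without it also supplies a mitochondrial enzyme. All 36 genes had a probe that could be tested, with 59 of their 60 probes tested, among 15524 genes. The probe left out is a second one of Nars2 that was not well above background. Each of 4 arrays compared Cyp11a1 knockout mouse pancreas (E18.5, late gestation) with wild-type pancreas of the same age, both of strain C57BL/6JNarl. Cyp11a1 encodes the mitochondrial enzyme that starts steroid hormone synthesis from cholesterol. Knockout RNA was always labelled red and wild-type RNA green, with 0 dye swaps among the 4 arrays, so a dye effect of a single gene and the genotype cannot be told apart in any value below. The labels call the 4 pairs of extracts biological replicates and do not say whether an extract came from a single embryo or from a pool, nor how the allele was made.

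An aminoacyl-tRNA synthetase joins an amino acid to its matching tRNA, and so supplies charged tRNA to the ribosome. In mammals most amino acids have a nuclear gene for the cytosolic enzyme and a separate one for the mitochondrial enzyme, and several of the cytosolic enzymes sit together in a multi-synthetase complex with the scaffold proteins Aimp1, Aimp2 and Eef1e1. Exocrine pancreas makes secreted protein at a high rate, and many cytosolic synthetase genes are known targets of Atf4, the transcription factor of the integrated stress response.

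The values are log2 ratios of the red (knockout) over the green (wild-type) signal on each array, after background correction and an intensity-dependent loess normalisation within the array. A gene passed when limma's two-sided test of its 4 ratios against 0 had an adjusted p under 0.05 over all 15524 genes. Loess sets the ratio of most genes near 0 at every brightness. With each array only centred on its median the middle gene stood at 0.26 (log2) in place of 0.01, so values with median centring are given relative to 0.26 where stated. Median signals ranged over 304 to 467 for knockout and over 163 to 224 for wild type, and between 78.2% and 85.1% of spots cleared the background by a wide margin. The 4 arrays share 1 slide, and the number of arrays limits the precision of every value. Ratios of 2 arrays correlated across genes at 0.31 to 0.60, and genes are not independent replicates. Some RNAs differed widely within the pairs. The ratio of Xist, the RNA of the inactive X chromosome, was -3.91, -0.28, -4.22 and 3.46 on arrays 1 to 4, and that of the Y-linked Uty 2.13, 0.08, 2.30 and -1.64. The other Y-linked genes listed also had the opposite sign to Xist on arrays 1, 3 and 4, where the sexes of the 2 extracts appear to differ. The ratio of Alb, a hepatocyte gene, was 4.13, 2.70, -3.52 and 1.44. The 9 hepatocyte genes measured on every array had a summed level of 7237 to 21311 in knockout and 7375 to 11311 in wild-type channels, and the 17 acinar genes 974359 to 1240644 in knockout and 902033 to 1013859 in wild-type channels. No marker was listed at 0, and the part of these RNAs in the results was not tested. The ratio of Cyp11a1 itself was -0.19, -0.40, 0.01 and -0.07 (mean -0.16 ± 0.070 (SE, n = 4), limma adjusted p = 0.164). The files do not say whether its probe lies inside the deleted part, so it checks no label. In bulk tissue, fewer cells of a type and less RNA per cell cannot be told apart.

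With loess, most synthetase genes stood close to 0: 3 of 36 passed, namely the cytosolic Nars as lower and the mitochondrial Lars2 and Fars2 as higher in knockout pancreas, whereas with median centring Nars stood at 0.04 and 32 of 36 passed, 30 of them higher (over all genes 76.8% passed and 61.0% were higher). The 3 genes are 8.33% of the members, against 14.6% of all genes tested (9.45% higher and 5.11% lower), so the share of synthetase genes that passed was below the background of this comparison. At an unadjusted p under 0.05, 12 of the 36 passed, beside 4777 of the 15524 genes tested. The median ratio of the 36 was 0.02, beside 0.01 for all genes. The size of the ratio, sign apart, had a median of 0.095 among the members and 0.083 among all genes. The 95% interval of 35 of the 36 (97.2%) lay within a 1.5-fold change in either direction, as did that of 96.6% of all genes. The exception was Lars2. With loess 10 members were above 0 and 7 below 0 on all 4 arrays, where the background was 24.6% of genes above and 14.4% below.

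**Figure D1:**
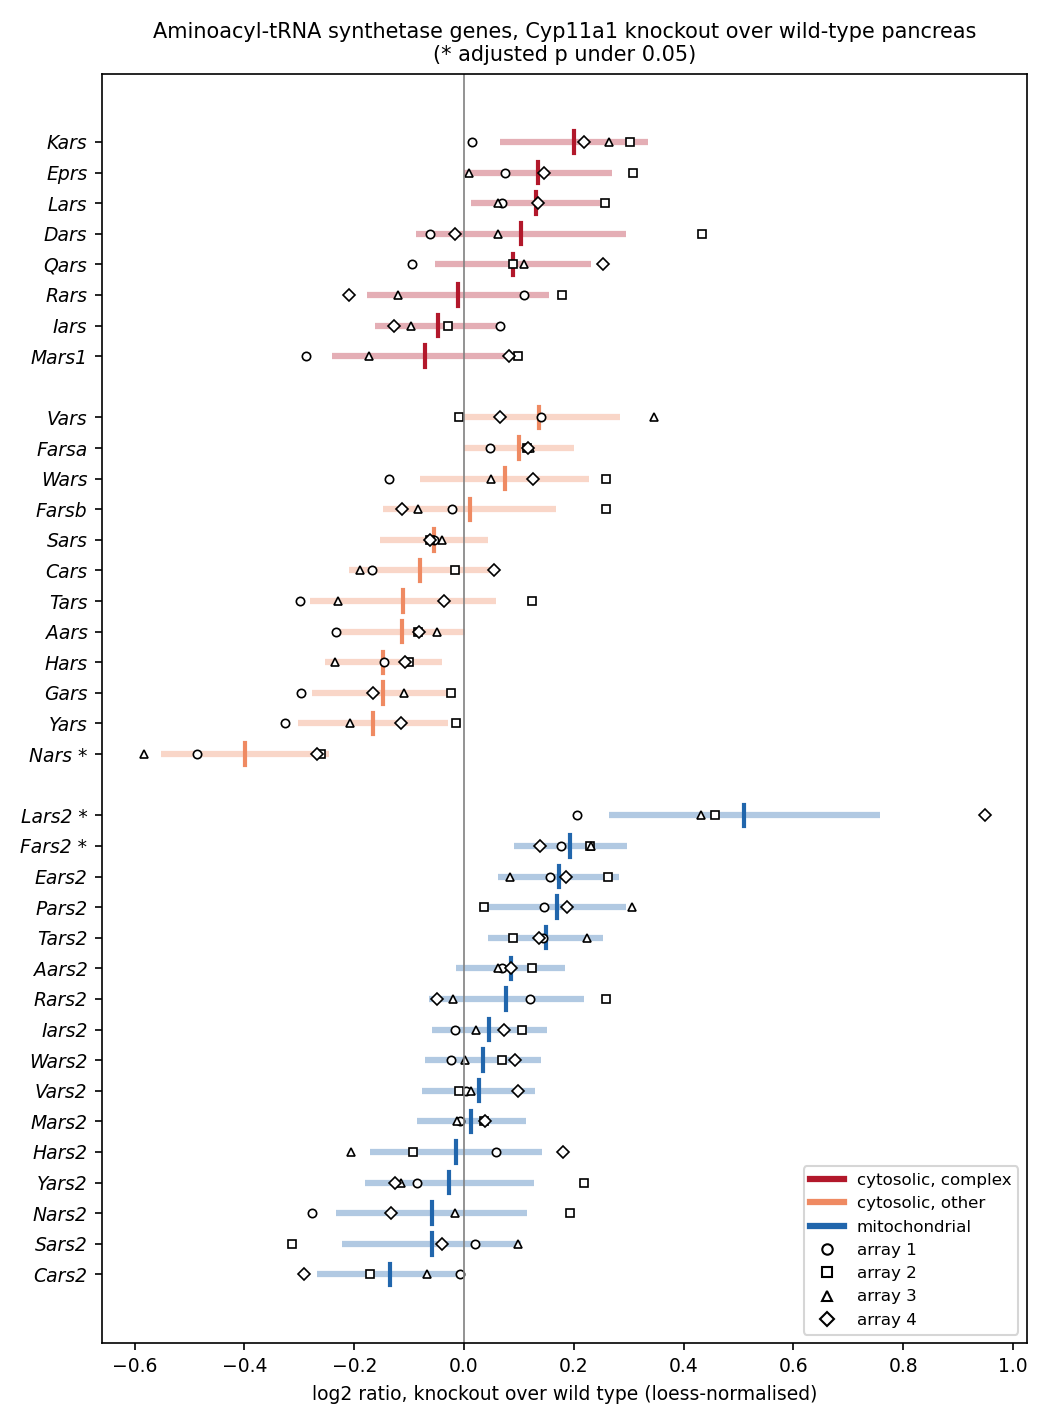
Log2 ratio, knockout over wild type, of each of the 36 synthetase genes (rows) with loess normalisation: open symbols are the 4 arrays, the coloured tick is their mean and the pale bar its 95% interval. Nars, Fars2 and Lars2, marked by a star, passed the threshold, and most other intervals include 0; with median centring the sign of the mean ratio differs for 18 members and Nars stands at 0.04.

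Nars, the cytosolic asparaginyl-tRNA synthetase, was the lowest of the 36 with loess. Its ratio was -0.49, -0.26, -0.58 and -0.27 on arrays 1 to 4, below 0 on every array. Before normalisation the knockout channel was the brighter one for this spot, as for most, with a median signal of 3111.5 to 4650.5 in knockout and 1798.5 to 3253.5 in wild-type channels. Its level (log2, scaled between arrays) was 11.60, 11.24, 11.10 and 11.65 in knockout and 12.08, 11.50, 11.68 and 11.92 in wild-type pancreas. The channel levels overlapped between the groups, while within each pair the knockout was lower. The mean was -0.40 ± 0.066 (SE, n = 4), a fold of 0.758 (limma adjusted p = 0.0096). Nars was the only member outside the 5th to 95th percentile of genes of like brightness, which ran from -0.28 to 0.27 in its bin of 388 genes. By definition 5% of genes lie below such a band and 5% above it, so 1 of 36 members outside is no excess. With median centring Nars stood at 0.04, which limma did not tell from 0 (adjusted p = 0.559). That setting put genes of like brightness at a median of 0.43, so the difference of Nars from its bin was -0.39, close to its ratio with loess. The test against 0 does not address that difference. It also did not pass when the channels were fitted without their pairing on an array (limma adjusted p = 0.352). The gene has 1 probe.

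Lars2, the mitochondrial leucyl-tRNA synthetase, was the highest. Its ratio was 0.21, 0.46, 0.43 and 0.95, and its level 17.42, 17.39, 17.46 and 17.63 in knockout pancreas, against 17.21, 16.93, 17.03 and 16.68 in wild-type pancreas. The groups did not overlap, and array 4 held both the highest knockout and the lowest wild-type level. The mean was 0.51 ± 0.11 (SE, n = 4), a fold of 1.42 (limma adjusted p = 0.021), and with median centring it stood 0.92 above the middle gene. That setting put genes of like brightness at a median of 0.61, so Lars2 stood 0.56 above its bin. The spot of Lars2 was read from the low-gain scan and scaled up, in both channels on all 4 arrays, as the flags in the files show. No other member carried this flag in both channels. Of the 215 tested genes with the flag in both channels on all 4 arrays, 28 were higher in knockout (13.0%), beside the 9.45% of all genes. The median signal as deposited was 274163 to 332364 in knockout and 67490.7 to 89944.5 in wild-type channels, below saturation values of 629398 and more. In its brightness bin of 389 genes the 5th to 95th percentile ran from -0.21 to 0.70, so Lars2 lay inside this band. The mean log2 brightness of this spot was 17.25, near that of Amy2a5, an acinar gene, at 17.29. Farsa, the next brightest member, stood at 13.65. Lars2 has a single probe, and whether that probe reads only Lars2 RNA was not tested. Its call was lost without replicate 3 (limma adjusted p = 0.051), and its ratio was 0.36 without replicate 4, which still passed. It was also lost with Feature Extraction's processed signals (limma adjusted p = 0.061), with scaling between arrays (0.053) and with a trended, robust variance (0.080).

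Fars2, the mitochondrial phenylalanyl-tRNA synthetase, had ratios of 0.18, 0.23, 0.23 and 0.14. Its level was 8.91, 8.96, 9.15 and 8.98 in knockout pancreas, against 8.74, 8.73, 8.92 and 8.84 in wild-type pancreas. The groups overlapped at 1 array each, since the wild-type level of array 3 was above the knockout level of array 1. The mean was 0.19 ± 0.044 (SE, n = 4), a fold of 1.14 (limma adjusted p = 0.028), and with median centring it stood 0.15 above the middle gene. With each replicate left out in turn it no longer passed (limma adjusted p = 0.063 to 0.107). Fars2, too, has a single probe.

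**Figure D2:**
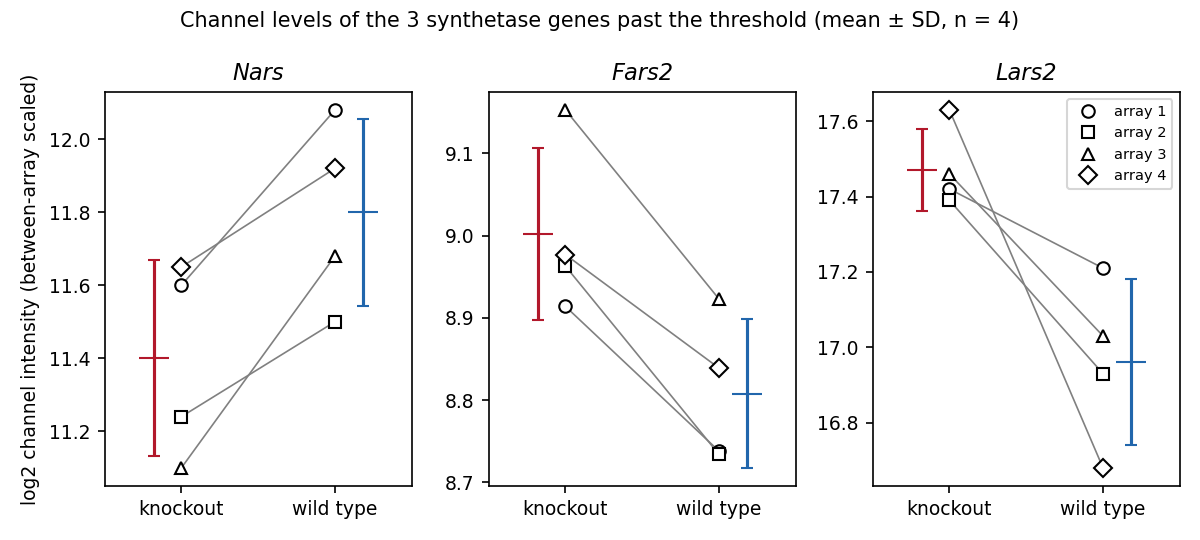
Log2 channel intensity, scaled between arrays, of Nars, Fars2 and Lars2 in knockout (left of each panel) and wild-type pancreas (right), with lines joining the channels of an array and bars for the mean ± SD (n = 4). The lines of Nars all run upward to wild type and those of Fars2 and Lars2 all downward with loess, while the groups overlap for Nars and Fars2; with median centring Nars stands at 0.04.

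The 20 cytosolic genes had a median ratio of -0.03 with loess and of 0.38 with median centring (0.13 relative to all genes). With loess 0 of 20 were higher and 1 lower. The list median was -0.08, 0.09, -0.07 and -0.03 on arrays 1 to 4, so its sign was not the same on every array. The 16 mitochondrial genes had a median of 0.04 with loess and of 0.36 with median centring (0.10 relative to all genes), and 2 were higher and 0 lower with loess. Their median was 0.04, 0.10, 0.02 and 0.09 on the 4 arrays. The cytosolic median was below the mitochondrial one on each array, by 0.117, 0.004, 0.084 and 0.116 (mean difference -0.080 ± 0.053 (SD, n = 4)), but above it with median centring. Members share arrays, so this difference has no test. Among the 13 amino acids with both enzymes in the set, the cytosolic gene had the lower ratio for 9 and the higher for 4, against 7 and 6 with median centring. With loess it was lower on all 4 arrays for alanine, histidine, leucine, asparagine and arginine, and higher on all 4 for 0 of the 13. Some of these differences were close to 0, such as -0.007 for histidine on array 2 and -0.011 for arginine on array 1. The count of pairs has no background beside it and was not tested.

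The widest of these gaps belonged to the genes that passed. Lars stood at 0.13 and Lars2 at 0.51, a difference of -0.38 ± 0.31 (SD, n = 4), and Nars at -0.40 and Nars2 at -0.06, a difference of -0.34 ± 0.20 (SD, n = 4). For Aars, the alanine enzyme of the cytosol, the difference from Aars2 was -0.20 ± 0.080 (SD, n = 4), from -0.30 on array 1 to -0.11 on array 3. For serine the means were close, with Sars at -0.05 and Sars2 at -0.06, but the difference ran from -0.14 on array 3 to 0.25 on array 2 (SD 0.17, n = 4).

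Within the cytosol the multi-synthetase complex had the higher median, with wide overlap between the groups: Mars1, Iars and Rars of the complex lay below Vars, Farsa, Wars and Farsb outside it. The median of the 8 complex genes was 0.10 with loess, and that of the 12 others -0.10. The difference was 0.20, 0.23, 0.13 and 0.18 on the 4 arrays (mean 0.19 ± 0.043 (SD, n = 4)), and with median centring the medians were 0.54 and 0.35. This difference, too, has no test. None of the 8 complex genes passed with loess in limma (2 had an unadjusted p under 0.05), and all 8 were higher with median centring, a setting in which 61.0% of all genes were higher and the bins that hold these 8 had medians of 0.365 to 0.447. Kars, the lysyl-tRNA synthetase, came nearest, with ratios of 0.01, 0.30, 0.26 and 0.22. Its mean was 0.20 ± 0.058 (SE, n = 4; limma adjusted p = 0.058), and it passed without replicate 1 at 0.26 (limma adjusted p = 0.038). Eprs, which carries the glutamyl and prolyl activities in a single protein, stood at 0.13 ± 0.058 (SE, n = 4) and Lars, the leucyl enzyme, at 0.13 ± 0.050 (SE, n = 4), and both were above 0 on every array. Dars, the aspartyl enzyme, ran from -0.06 on array 1 to 0.43 on array 2. Qars, the glutaminyl enzyme, ran from -0.09 to 0.25. Rars, Iars and Mars1, for arginine, isoleucine and methionine, had means of -0.01, -0.05 and -0.07 with loess and of 0.38, 0.38 and 0.28 with median centring, and each held both signs among its arrays.

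Of the 12 cytosolic enzymes outside the complex, 8 had a mean below 0 and 4 above 0 with loess, and Nars alone passed, whereas with median centring 10 were higher, beside 61.0% of all genes. Yars, the tyrosyl enzyme, had ratios of -0.33, -0.02, -0.21 and -0.12, and its mean of -0.17 ± 0.059 (SE, n = 4) did not pass (limma adjusted p = 0.103). Gars, the glycyl enzyme, had ratios of -0.30, -0.02, -0.11 and -0.17, with a mean of -0.15 ± 0.055 (SE, n = 4; limma adjusted p = 0.116). In both genes array 1 was lowest and array 2 nearest to 0. Hars, the histidyl enzyme, had a mean of -0.15 ± 0.046 (SE, n = 4; limma adjusted p = 0.074) and passed with a trended, robust variance (limma adjusted p = 0.045). Aars, Tars and Cars, for alanine, threonine and cysteine, had means of -0.11, -0.11 and -0.08. Sars, the seryl enzyme, had the narrowest range of the 36, with ratios between -0.06 and -0.04. Vars, Farsa, Wars and Farsb had means of 0.14, 0.10, 0.07 and 0.01. Farsa and Farsb encode the α and β chains of the cytosolic phenylalanyl-tRNA synthetase.

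Among the mitochondrial enzymes, Ears2 for glutamate, Pars2 for proline and Tars2 for threonine followed Lars2 and Fars2 in order of the ratio. Ears2 had ratios of 0.16, 0.26, 0.08 and 0.19, and its mean of 0.17 ± 0.048 (SE, n = 4) lay at the threshold (limma adjusted p = 0.0509). It passed with scaling between arrays, with a stricter filter on dim probes and with the mean of a gene's probes. It also passed with a trended, robust variance and with array weights (limma adjusted p = 0.044 to 0.049 over these settings). Pars2 had a mean of 0.17 ± 0.054 (SE, n = 4; limma adjusted p = 0.079), which with median centring was -0.04. Tars2 had a mean of 0.15 ± 0.045 (SE, n = 4; limma adjusted p = 0.068), with a level of 9.24 to 9.38 in knockout and 9.10 to 9.20 in wild-type pancreas that did not overlap. Pars2 and Tars2 passed with array weights (limma adjusted p = 0.044 and 0.049). The standard errors of Ears2, Pars2 and Tars2 exceed the gaps between them. The remaining 11 had means from -0.13 (Cars2, for cysteine) to 0.09 (Aars2, for alanine). Mars2 and Wars2, for methionine and tryptophan, had loess ratios of 0.01 and 0.03, whereas median centring gave -0.26 and -0.27, where both were lower (limma adjusted p = 0.0018 and 0.0020). They are among the dimmest spots of the set. With median centring the median ratio of all genes in a bin of like brightness ran from -0.50 in the dimmest to 0.61 in the brightest of 40 bins.

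**Figure D3:**
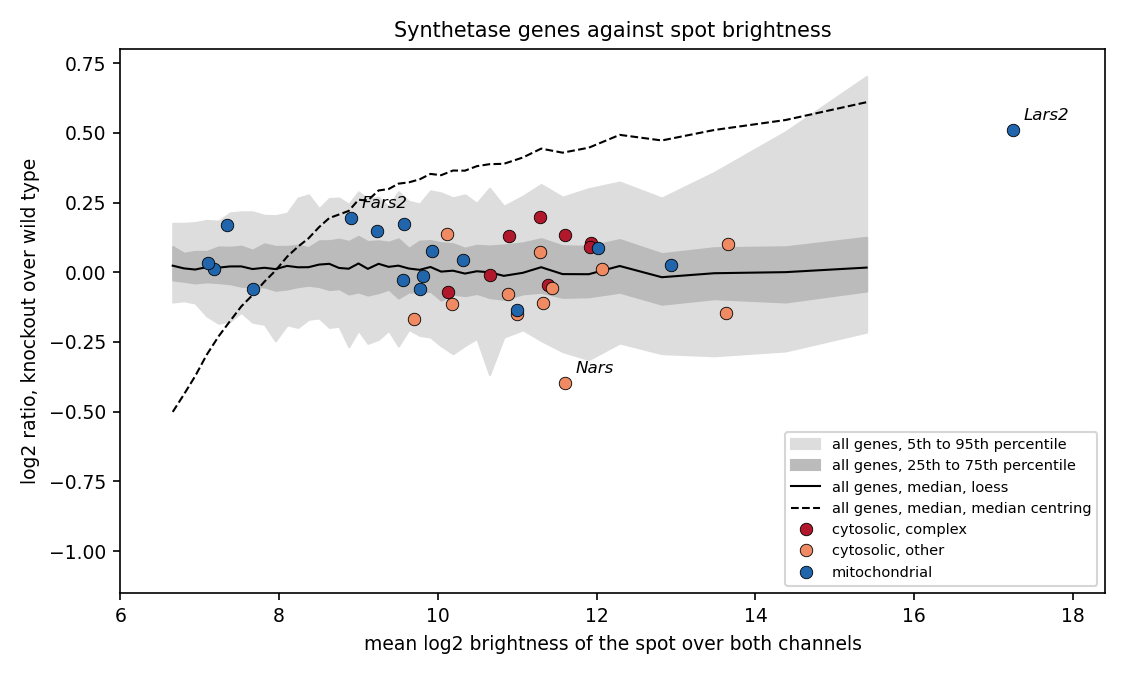
Log2 ratio, knockout over wild type, against mean log2 brightness of the spot for the 36 synthetase genes (coloured points, loess), over bands for all genes tested in 40 bins of brightness. Nars lies below the 5th to 95th percentile band of its bin (-0.28 to 0.27); the dashed line is the bin median with median centring, which climbs with brightness and reaches 0.61 in the brightest bin, where Lars2 lies.

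Of the 36 genes 16 had several tested probes, and in 13 of these the probes had the same sign with loess. The probes of Cars2, Dars and Farsa held both signs. The median spread between the probes of a gene was 0.076 and the largest 0.179. Tested probe by probe, 5 synthetase probes passed, beside 10.7% of all 32596 probes. Besides those of Nars, Lars2 and Fars2 they were a second probe of Tars at -0.23 and one of Qars at 0.19 (limma adjusted p = 0.043 for both), whose brighter probes stood at -0.11 and 0.09 and did not pass. With median centring 61.0% of all genes were higher and 15.8% lower, and the 20 cytosolic genes numbered 18 higher and 0 lower beside it, the 16 mitochondrial genes 12 higher and 2 lower.

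Letters that resemble the binding site of Atf4 were found in promoters of the cytosolic set and in none of the mitochondrial set. The motif searched was TGATGNAA on both strands, the core of the C/EBP-ATF response element, in the stretch from 250 bases before to 50 after the start site in the promoter table of RefSeq (GRCm38.p6). Of the 20 cytosolic genes 13 had a promoter there, and 5 of them (38.5%) held the motif, namely Aars, Gars, Iars, Tars and Yars. Of the 14 mitochondrial genes with a promoter 0 held it, and 1219 of the 27025 genes in the table did (4.51%). The exact letters TTGCATCA, a stricter form that always contains the motif, were in 4 of the 13 (all of these but Gars), in 0 of the 14 and in 1.03% of all genes. A match is a description of the letters and does not show that Atf4 binds there. The 150 bases around the start sites of these genes follow, from 120 before to 29 after it, 5′ to 3′ on the strand of the gene, with the motif in capitals, so that its place can be compared. Those of Lars2 and Fars2, the mitochondrial genes that passed, hold no match and are given beside them.
Yars: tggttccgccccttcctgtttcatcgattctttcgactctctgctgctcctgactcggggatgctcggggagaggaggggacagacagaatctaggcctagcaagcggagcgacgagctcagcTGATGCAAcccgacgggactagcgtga
Gars: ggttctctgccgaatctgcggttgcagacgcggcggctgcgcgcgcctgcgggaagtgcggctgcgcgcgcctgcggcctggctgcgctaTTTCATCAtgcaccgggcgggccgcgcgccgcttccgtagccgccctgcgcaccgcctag
Aars: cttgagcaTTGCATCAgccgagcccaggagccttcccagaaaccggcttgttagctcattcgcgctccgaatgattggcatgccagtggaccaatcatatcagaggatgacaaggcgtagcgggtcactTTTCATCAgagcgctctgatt
Iars: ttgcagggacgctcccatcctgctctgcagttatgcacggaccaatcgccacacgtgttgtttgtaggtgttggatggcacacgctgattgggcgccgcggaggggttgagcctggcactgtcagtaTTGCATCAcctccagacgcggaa
Tars: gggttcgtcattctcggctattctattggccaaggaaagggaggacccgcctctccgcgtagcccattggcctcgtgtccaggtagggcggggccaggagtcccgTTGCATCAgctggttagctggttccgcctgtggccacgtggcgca
Lars2: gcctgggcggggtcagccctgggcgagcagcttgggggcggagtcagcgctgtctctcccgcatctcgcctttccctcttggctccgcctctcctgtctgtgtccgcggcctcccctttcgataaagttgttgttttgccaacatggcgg
Fars2: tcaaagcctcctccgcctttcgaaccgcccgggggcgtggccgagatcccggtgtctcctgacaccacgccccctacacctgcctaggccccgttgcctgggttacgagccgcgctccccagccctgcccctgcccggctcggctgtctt
In build GRCm38.p6 these lie at chr4:129189783-129189932 for Yars, chr6:55037881-55038030 for Gars, chr8:111033722-111033871 for Aars, chr13:49682010-49682159 for Iars, chr9:123366807-123366956 for Lars2 and chr13:36117523-36117672 for Fars2, all on the plus strand, and at chr15:11399629-11399778 on the minus strand for Tars. The match began 3 bases after the start site in Yars, 7 after it in Iars, 15 before it in Tars and 30 before it in Gars. Aars held it at 112 before and at 9 after the start site.

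With loess the 5 genes with the motif all had a mean ratio below 0, from -0.17 (Yars) to -0.05 (Iars), with a median of -0.11, and 0 of 5 passed. Of the 8 cytosolic genes with a promoter and no match 6 were above 0 and 2 below, with a median of 0.09. Cytosolic genes without a promoter in the table, among them Nars, Hars and Cars, are in neither group, so the lowest cytosolic gene was not assessed. The median of the 5 was -0.30, -0.02, -0.11 and -0.12 on arrays 1 to 4, and that of the 8 was -0.04, 0.19, 0.04 and 0.10, so the genes with the motif stood lower on each array. The motif was in 1 of the 6 complex genes with a promoter and in 4 of the 7 other cytosolic genes. This split thus overlaps with that between complex and other cytosolic genes, and the 2 were not separated. The 14 mitochondrial genes had a median of 0.04. With median centring the medians were 0.26 for the 5, 0.55 for the 8 and 0.41 for the 14, in the same order as with loess but all above 0. Among all tested genes 402 had the motif, of which 196 were above and 206 below 0 (median -0.004), and 6.97% of them were lower in knockout, beside 4.98% of the 11999 without it.

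**Figure D4:**
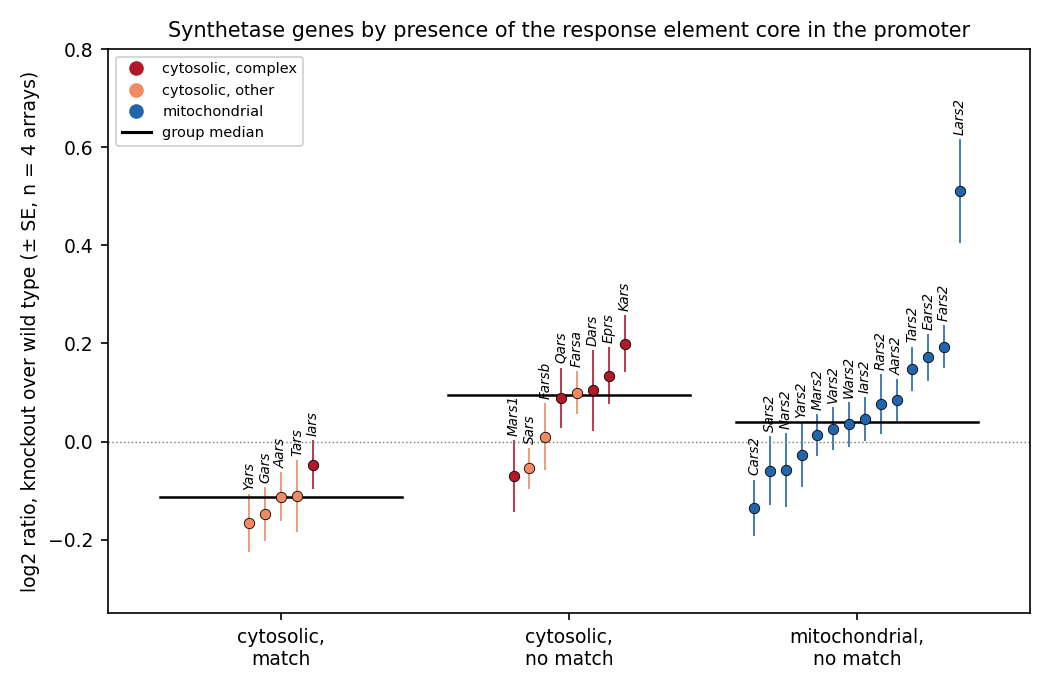
Mean log2 ratio with loess, knockout over wild type (± SE, n = 4 arrays), of the synthetase genes with a promoter in the table, split by whether it holds the response element core. Black lines are group medians, and genes without a promoter in the table, Nars among them, are not shown. All 5 cytosolic genes with a match lie below 0 and 6 of 8 without one above 0; with median centring all 13 lie above 0 and the medians are 0.26 with and 0.55 without a match.

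With loess, genes that passed among the partners of the enzymes were higher in knockout pancreas and those among the other targets of Atf4 were lower, while with median centring Atf4 targets passed in both directions. Of 19 tested partners (scaffolds of the complex, tRNA editing and transport proteins and elongation factors) 5 were higher (26.3%, beside 9.45% of all genes) and 0 lower, with a median of 0.10. With median centring 14 were higher, beside 61.0% of all genes. The partner list was chosen with earlier results of these data known, so these shares are a description and not a test. Eef1a1, which carries charged tRNA to the ribosome, had ratios of 0.63, 1.05, 0.85 and 0.78, a mean of 0.83 ± 0.069 (SE, n = 4; limma adjusted p = 0.0019). Aimp1, a scaffold of the complex, had ratios of 0.29, 0.36, 0.22 and 0.30, a mean of 0.29 ± 0.046 (SE, n = 4; limma adjusted p = 0.0082), while Aimp2 and Eef1e1 stood at 0.02 and -0.03 and did not pass. Dtd1 and Dtd2, which remove wrongly charged amino acids from tRNA, were higher at 0.29 and 0.17, and Ptrh2, a peptidyl-tRNA hydrolase, at 0.245. With each replicate left out in turn Dtd2 no longer passed (limma adjusted p = 0.068 to 0.119).

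Of 23 Atf4 targets other than synthetases, Atf4 itself included, 13 were lower (56.5%, beside 5.11% of all genes) and 0 higher with loess (median -0.33). With median centring 8 were lower (beside 15.8% of all genes) and 11 higher (beside 61.0% of all genes), with a median of 0.10 (-0.15 relative to all genes). This list, too, was chosen with earlier results of these data known, so its shares are a description and not a test. Chac1, a glutathione-degrading enzyme, had ratios of -1.85, -2.53, -1.87 and -2.31, and its level was 7.66 to 8.60 in knockout and 9.80 to 10.91 in wild-type pancreas, without overlap. Its mean was -2.14 ± 0.11 (SE, n = 4; limma adjusted p = 0.00092), and -1.90 with median centring. Psat1, an enzyme of serine synthesis, fell by 0.53, Atf5, a related transcription factor, by 0.48, Vldlr, a lipoprotein receptor, by 0.56, and Slc7a5, a transporter of large neutral amino acids, by 0.44 with loess (limma adjusted p = 0.0023 to 0.0044). With median centring Psat1 and Vldlr still passed as lower, while Atf5 and Slc7a5 stood at -0.02 and -0.11 and did not pass. Asns, which makes the asparagine that Nars attaches, stood at -0.01 and did not pass.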

How the data were processed

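RNA of 4 knockout and 4 wild-type pancreas extracts was hybridised in pairs to 4 two-colour Agilent arrays. Per the file headers, the authors deposited scanner output: red and green spot and local background signals as linear intensity, Feature Extraction's processed intensity, the log10 ratio of red over green, and spot flags with no unit. Feature Extraction 10.5.1.1 made them, per the submitters' processing notes. For 92.5% of spots the deposited log10 ratio is that of the processed intensities to within 0.001. No spot was saturated, and 597 to 979 per array were flagged as non-uniform and left out.

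In R 4.3.3 with limma 3.58.1, median signals were background-corrected (normexp, offset 50) and normalised by loess within each array, with control spots at weight 0. Channel levels were scaled between arrays by limma's Aquantile method. A probe was kept if well above background in either channel on at least 3 of 4 arrays, and the brightest probe stood for a gene. Of 41174 probes, 25097 (61.0%) matched a RefSeq gene by accession. Log2 ratios were tested against 0 with limma's lmFit and eBayes, two-sided, with Benjamini-Hochberg adjustment over 15524 genes, 601 of them measured on 3 arrays. The fit was tested on simulated data. Other settings are listed with their effect at the end. A comparison of protein sequences that had been planned was not run. The members and all gene lists were chosen with earlier results of these data known. Every member tested is named or counted, with per-array values for those past the threshold. Of the partner and Atf4 target lists the 5 with the smallest p are named. Aimp2, Eef1e1, Asns, Alb, Uty and Amy2a5 were named after their values were seen.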

Additional observations from a re-analysis of the deposited data

Results flagged for a closer look

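In 2 of 54 genes and list medians screened over the 4 arrays, 1 array lay far from the other 3 for the spread among them, which chance gives for about 1 in 20. Farsa, the α chain of the cytosolic phenylalanyl-tRNA synthetase, had a log2 ratio of 0.048 on array 1 and of 0.115 to 0.119 on the other arrays. Its spot was scaled up from the low-gain scan in the knockout channel on 3 arrays and in the wild-type channel on 0. Whether this bears on its ratios was not tested. Yars2, the mitochondrial tyrosyl-tRNA synthetase, had 0.22 on array 2 and -0.13 to -0.08 on the other arrays. Neither passed the threshold.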

How the results depend on the processing

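Over 15 other settings, Nars kept its direction and call in 13, Lars2 in 9 and Fars2 in 8, and Lars2 and Fars2 kept their direction in all 15. With median centring in place of loess, which leaves the brightness-dependent trend of the ratio in place and puts the median of all genes at 0.26, 18 cytosolic genes were higher and 0 lower (median 0.38), 12 mitochondrial genes higher and 2 lower (median 0.36), and the medians of complex and other cytosolic genes were 0.54 and 0.35. There, 14 partners were higher, 8 Atf4 targets lower (median 0.10), and 11922 genes passed (9471 higher and 2451 lower), against 2260 with loess. Relative to its bin of like brightness Nars was then at -0.39. The sign turned for Nars at 0.042, Iars at 0.38, Mars1 at 0.28, Rars at 0.38, Aars at 0.245, Cars at 0.32, Gars at 0.26, Hars at 0.37, Sars at 0.38, Tars at 0.32, Cars2 at 0.28, Hars2 at 0.31, Sars2 at 0.265, Yars2 at 0.28, Mars2 at -0.26 and Wars2 at -0.27, for Yars at 0.15 and Pars2 at -0.04, which passed in neither setting, and for Atf4 at 0.10 and Asns at 0.50. With single channels and no replicate block, which ignores the array that a knockout and a wild-type extract share, 107 genes passed in limma, with 0 cytosolic genes lower, 0 mitochondrial genes higher, 1 partner higher and 1 Atf4 target lower. With processed signals, and with the log ratio column, 1 mitochondrial gene was higher. With a trended, robust variance 1 cytosolic gene was higher and 2 lower, and with array weights 1 cytosolic and 5 mitochondrial genes were higher. Counts over all genes with these settings are not given here, so no background stands beside them. Leaving out each replicate gave 0 to 1 cytosolic genes higher, 0 to 1 mitochondrial genes higher (0 without replicate 3, where Lars2 and Fars2 both missed), an Atf4 target median of -0.3205 to -0.2395, and 963 (without replicate 3) to 1627 genes past the threshold. Apart from the effect of fewer arrays, the cause of these shifts was not tested. Wars2 passed as higher at 0.29 with processed signals and at 0.30 with the log ratio column, and as lower with median centring. The exact letters left 4 of 13 cytosolic promoters with a match. With 4 arrays of a single dye orientation, no setting separates dye from genotype.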
